A study of Mus musculus with 4 samples.

Results

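The genes described are the endothelin receptors Ednra and Ednrb and the endothelin-converting enzyme Ece1, 3 of the 3891 genes read whole from the processed table. They were taken by name, and all 3 passed the filter on low values in every comparison. The cells came from the small intestine of wild type C57Bl/6 mice, male and 8 weeks old, with no treatment and no other allele. After Liberase digestion the sort kept live gp38+ (podoplanin) cells and gated out leukocytes by CD45, epithelium by EpCAM and endothelium by CD31. They were loaded on 2 10X Genomics libraries of 2547 and 14344 cells, or on 2 Smartseq2 plates of 739 cells together. The results rest on the 10X libraries, since the plate values were corrected on integration and a value above 0 there need not mark a detected transcript. How many mice entered a library is not given in the sources used here. The p-values therefore measure only how group differences vary between these 2 libraries. That spread is estimated over all 8 groups together and drawn toward the spread of other genes, and it may be technical.

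Endothelins are short peptides cut from larger precursors by endothelin-converting enzyme, a membrane metalloprotease encoded by Ece1. Ednra and Ednrb encode G protein-coupled receptors, of which the first prefers endothelin 1 and the second binds all endothelins with like affinity. In blood vessels the receptor of smooth muscle drives contraction, and in the gut Ednrb is known for its role in neural crest cells, which give rise to the enteric nervous system.

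Ednra (ENSMUSG00000031616.7) lies on the minus strand of chromosome 8, at 77663031 to 77724464 (GRCm38). Ednrb (ENSMUSG00000022122.15) lies on the minus strand of chromosome 14, at 103814625 to 103844402. Ece1 (ENSMUSG00000057530.14) lies on the plus strand of chromosome 4, at 137862237 to 137965229. All are protein-coding genes, and a 10X value counts the transcripts of a gene, read near their 3′ end. The promoters are shown because the receptors differed in opposite directions between 2 sides of the subepithelial cells while Ece1 was high in both. They span 250 bases before to 50 bases after a RefSeq start (GRCm38.p6), 5′ to 3′ on the strand of the gene, at chr8:77724403-77724702, chr14:103843652-103843951 and chr4:137861987-137862286. Capitals mark matches, on either strand, to the TATA box letters TATAAA, the box known as CCAAT, the Sp family motif GGGCGG, the Sox family motif AACAAT or the E-box CACGTG, and no matches overlap in these windows.
Ednra: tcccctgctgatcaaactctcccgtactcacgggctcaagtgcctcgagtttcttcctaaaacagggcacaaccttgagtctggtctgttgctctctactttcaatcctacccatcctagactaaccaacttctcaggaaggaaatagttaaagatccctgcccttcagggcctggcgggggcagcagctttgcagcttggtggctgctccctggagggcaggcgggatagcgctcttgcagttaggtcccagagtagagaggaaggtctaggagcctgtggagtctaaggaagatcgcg
Ednrb: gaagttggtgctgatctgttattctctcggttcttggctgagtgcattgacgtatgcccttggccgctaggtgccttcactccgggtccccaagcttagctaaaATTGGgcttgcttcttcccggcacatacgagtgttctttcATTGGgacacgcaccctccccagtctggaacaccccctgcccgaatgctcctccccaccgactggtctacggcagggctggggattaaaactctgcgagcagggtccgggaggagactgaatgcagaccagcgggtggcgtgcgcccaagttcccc
Ece1: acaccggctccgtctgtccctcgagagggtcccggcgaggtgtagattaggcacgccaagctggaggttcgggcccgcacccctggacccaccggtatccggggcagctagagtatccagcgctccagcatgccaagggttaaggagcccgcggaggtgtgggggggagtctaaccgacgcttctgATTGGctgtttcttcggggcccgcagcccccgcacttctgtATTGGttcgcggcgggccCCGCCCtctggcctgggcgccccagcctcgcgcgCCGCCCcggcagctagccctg
The Ednra window held none of these letters. The Ednrb window held CCAAT on the opposite strand at -146 and -106 from the start site. The Ece1 window held CCAAT on the opposite strand at -64 and -23 and GGGCGG on the opposite strand at -5 and 30. CCAAT was present in 37.4% and GGGCGG in 35.7% of 32851 RefSeq promoters of the same length, AACAAT in 10.7%, TATAAA in 13.6% and CACGTG in 7.15%. RefSeq listed 3 further Ece1 starts, 43, 51321 and 58556 bases into the gene. The Ednrb start used lies 701 bases inside the gene edge given above, so that window lies within the annotated gene. GC content was 54.7% for Ednra, 58.7% for Ednrb and 69.3% for Ece1, against a median of 52.7% over all promoters.

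Cells were grouped by transcripts with a unique molecular identifier (UMI). Smooth muscle cells held 3 or more of Cnn1, Hhip, Actg2 and Lmod1. Other cells with a UMI of Sox6 formed the subepithelial cells, split into a Wif1 side, an Adamts18 side and cells with neither gene. Cells without Sox6 were called in turn mesothelial-like (3 or more of Inmt, Penk, Vit and Scara5), Fibin type (3 or more of Chodl, Dner, Thbs2 and Ptn), crypt (Grem1) and villus (Lpl). In libraries 1 and 2, respectively, this gave 114 and 814 cells on the Wif1 side, 152 and 1693 with neither gene and 18 and 174 on the Adamts18 side. Smooth muscle held 23 and 130 cells, of which 1 and 14 also held Sox6. The 0 and 4 cells with both Wif1 and Adamts18, and 191 and 1262 cells of no group, entered no comparison. Median depth was 8757 and 6874 UMIs per cell, and the libraries shared 7 barcodes. Markers that the rule did not use were checked. Pdgfra, the receptor that marks subepithelial cells, stood at 34.5, 20.6 and 24.1 UMIs per 10,000 in library 2 on the Wif1 side, in cells with neither gene and on the Adamts18 side, against 4.69 in crypt and 4.97 in villus cells, but the Fibin type held 24.2. The 5 mesothelial markers summed to 1.54 and 2.15 UMIs per 10,000 in the mesothelial-like cells, the highest of the groups, but were unevenly present. Wt1 was found in 17.6% of them in library 2, but Upk3b in 0.362% and Msln in none. The 5 crypt markers summed to 49.0 and 42.3 UMIs per 10,000 in them and to 38.3 and 35.4 in the Grem1 crypt cells, so the name stands here for the rule only. Smooth muscle was highest in its own 7 markers, at 156.7 and 168.5, but also in endothelial markers, at 1.87 and 1.43. The 5 villus markers summed to 149.6 and 119.3 in it, against 118.8 and 146.7 in villus cells. The 4 markers listed for subepithelial B cells, such as Postn and Lama5, summed to 10.07 and 15.55 on the Adamts18 side but to 19.88 and 17.88 in the Fibin type. Cells with 3 or more glial markers numbered 4 and 133, and 1 and 62 of these lay among the Sox6 cells with neither gene. The 8 glial markers in the table summed to 1.54 and 3.81 UMIs per 10,000 in those cells, with 1 and 0 of them at 0, against 2.20 and 1.80 on the Wif1 side and 0.217 and 0.382 on the Adamts18 side.

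Ligand transcripts were scarce. Edn1, the precursor of endothelin 1, gave 33 and 100 UMIs in all cells of libraries 1 and 2, of which 27 and 35 were in mesothelial-like cells and 0 and 10 in Sox6 cells. Edn2 gave 1 and 7 UMIs. Edn3, the precursor of endothelin 3, gave 267 and 1315 UMIs, of which 139 and 453 were in crypt cells, or 52.1% and 34.5% of the UMIs in 40.0% and 33.5% of the cells. It stood at 0.151 and 0.207 UMIs per 10,000 on the Wif1 side, at 0.0911 and 0.109 in cells with neither gene and at 0 and 0.0465 on the Adamts18 side, the last from 8 UMIs. Crypt cells held 0.146 and 0.123 and the Fibin type 0.0828 and 0.221. Edn3 was lower on the Adamts18 than on the Wif1 side (difference in mean natural log value -0.094 ± 0.020 SE, limma, adjusted p = 0.00292). Ece2, which encodes a related protease, stayed at or below 0.0375 UMIs per 10,000 in each of the 8 groups tested. Endothelial cells, a major source of endothelin 1, were gated out, but 9 and 27 cells with endothelial markers remained. These held 0 and 3 Edn1 UMIs, a level of 0.570 UMIs per 10,000 in library 2 against 0.0407 in mesothelial-like cells, and Ece1 stood at 0.437 and 4.14. Ligand supplied by cells outside the sort was not analysed here.

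Ednra was highest on the Wif1 side. Its mean level was 5.41 and 6.59 UMIs per 10,000 there, 3.34 and 3.43 in Sox6 cells with neither gene, and 1.61 and 2.33 on the Adamts18 side. Smooth muscle held 0.412 and 0.683 and villus cells 0.257 and 0.451. Crypt cells held 0.176 and 0.242, mesothelial-like cells 0.121 and 0.228 and the Fibin type 0.061 and 0.217. The Sox6 groups stood in the same order in both libraries and above every other group, and their ranges did not overlap. A cell of the Wif1 side held a median of 6 Ednra UMIs in each library, with 23 as the highest count.

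Ednrb ran the other way and over a wider range. It reached 26.9 and 31.3 UMIs per 10,000 on the Adamts18 side, 8.45 and 8.14 in Sox6 cells with neither gene and 1.75 and 2.81 on the Wif1 side. Smooth muscle held 0.449 and 1.82 and villus cells 0.163 and 0.730. In crypt cells only 13 UMIs were counted over 1019 cells of library 1 and 450 over 4808 cells of library 2. Every one of the 18 and 174 Adamts18-side cells held an Ednrb UMI, with medians of 24.5 and 25 per cell and lowest counts of 4 and 1. Ednrb was therefore at 0 in no cell of this side, while 42 of 114 and 205 of 814 cells on the Wif1 side had none.

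**Figure D1:**
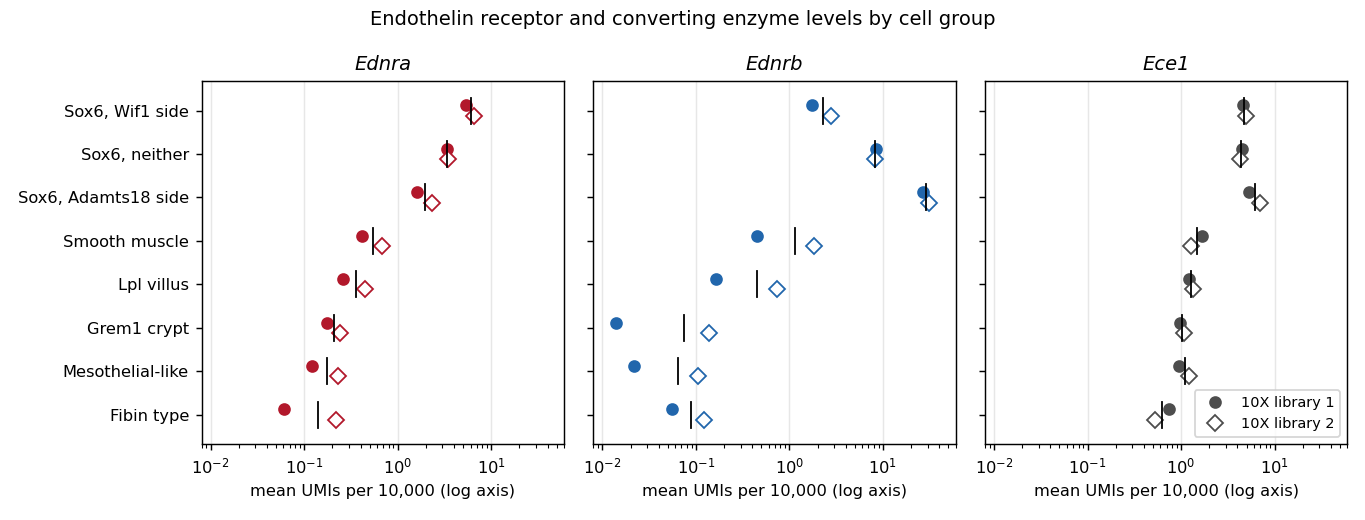
Mean level of each gene (UMIs per 10,000, log axis) in 8 cell groups, with filled circles for 10X library 1, open diamonds for library 2 and a bar at their mean. Ednra falls and Ednrb rises from the Wif1 side through cells with neither gene to the Adamts18 side, and Ece1 is above 4 UMIs per 10,000 in all 3 Sox6 groups.

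Between the sides both receptors differed by more than the spread of the libraries. Ednrb was 15.4-fold and 11.1-fold higher on the Adamts18 than on the Wif1 side in libraries 1 and 2, a difference of 2.36 ± 0.090 (SE) in mean natural log value (limma on library means with library as block and Benjamini-Hochberg adjustment over all genes tested, adjusted p = 3.25e-09). It was the largest difference among 1706 genes, of which 31.8% were called at an adjusted p of 0.05. Ranks and shares called here and below refer to tested genes of the 3891 in the table, not to all mouse genes. Ednra was 3.37-fold and 2.83-fold higher on the Wif1 side, a difference of -0.92 ± 0.053 (Adamts18 minus Wif1 side, limma, adjusted p = 5.30e-08). The cells with neither gene lay between the sides for both receptors. Their median depth was 10170 and 7635 UMIs, against 11980 and 9665 on the Wif1 side and 11570 and 8590 on the Adamts18 side. Since 1 UMI sets a side, they may include cells of either side in which that gene was missed, which was not tested. Against the cells with neither gene the Wif1 side was higher in Ednra by 0.62 ± 0.054 (limma, adjusted p = 1.12e-05) and lower in Ednrb, at -0.77 ± 0.090 (limma, adjusted p = 0.000142), where 11.9% of 1649 genes were called. The Adamts18 side was higher in Ednrb by 1.59 ± 0.090 (limma, adjusted p = 2.81e-07), again the largest difference of all genes tested, and lower in Ednra, at -0.30 ± 0.053 (limma, adjusted p = 0.00163), where 18.1% of 1683 genes were called. These comparisons share groups, so they are not independent of each other. With the Smartseq2 plates added to the fit, the Ednra calls of these comparisons were lost. The Ednrb call of the Wif1 side against cells with neither gene was lost as well, while the Ednrb calls of the Adamts18 side remained. Without all cells that held markers of other types, the cells with neither gene held 3.39 and 3.58 Ednra and 8.65 and 8.43 Ednrb UMIs per 10,000, close to the levels with them. The order of the groups was not the same on the Smartseq2 plates, whose corrected natural log values were lowest in cells with neither gene for both receptors. There Ednrb was 0.27 and 0.36 on the Wif1 side of plates 1 and 2, 0.042 and 0.042 in cells with neither gene and 1.17 and 0.72 on the Adamts18 side. Ednra was 0.55 and 0.47, 0.042 and 0.13, and 0.90 and 0.31 in the same groups. In plate 1 Ednra was thus higher on the Adamts18 than on the Wif1 side, from 9 cells. Plate cells called as holding both Wif1 and Adamts18 numbered 12 and 33 and lay outside these groups. They stood above these groups in both receptors, at 1.84 and 1.44 for Ednra and 1.45 and 1.85 for Ednrb. In library 2 the 4 cells with both Wif1 and Adamts18 held 5.54 Ednra and 22.2 Ednrb UMIs per 10,000.

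Against the other fibroblasts all 3 genes were higher in Sox6 cells. The difference from the mean of crypt, villus, mesothelial-like and Fibin type cells was 1.17 ± 0.029 for Ednra, 1.87 ± 0.049 for Ednrb and 1.13 ± 0.050 for Ece1 (limma, adjusted p = 1.65e-11, 2.12e-11 and 6.84e-10). In this comparison 74.2% of 1705 genes were called, and 43.4% were called higher, so a call by itself sets the members little apart. The Sox6 groups made up 11.2% and 18.7% of the cells. They held 77.0% and 80.2% of all Ednra UMIs, 91.8% and 86.6% of Ednrb UMIs and 40.5% and 54.0% of Ece1 UMIs.

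**Figure D2:**
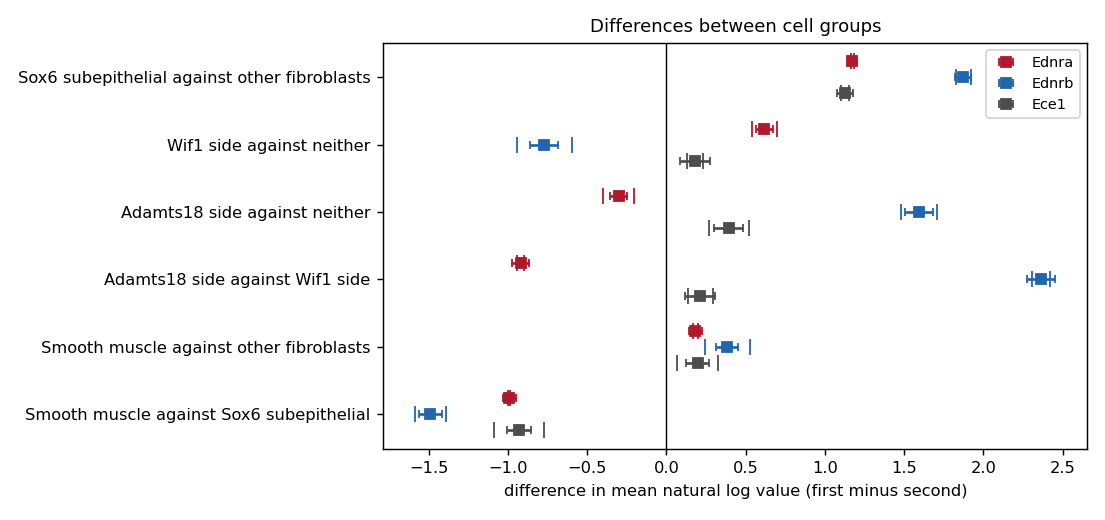
Difference in mean natural log value (first group minus second) for each gene in 6 comparisons, with squares for the limma estimate, horizontal bars for its SE and vertical ticks for the difference in each 10X library. Both libraries lie on the same side of 0 in every comparison, and Ednra and Ednrb point in opposite directions in the 3 comparisons within Sox6 cells.

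Most Sox6 cells held transcripts of both receptors. In libraries 1 and 2, 190 of 284 and 1828 of 2681 Sox6 cells held both (66.9% and 68.2%, exact 95% intervals 61.1 to 72.3 and 66.4 to 69.9, covering counting error only). Only 59 and 361 held Ednra alone, 22 and 258 Ednrb alone and 13 and 234 no receptor UMI. On the Adamts18 side every cell held Ednrb, so Ednra alone could not occur, and it was found in 2 of 18 and 1 of 173 cells when thinned to 2000 UMIs. On the Wif1 side Ednra alone was found in 36.0% and 23.6% of cells and Ednrb alone in 0.877% and 1.47%. As a background, among 87 cells with immune markers in library 2, at a median depth of 5199 UMIs, 8.05% held an Ednra and 6.90% an Ednrb UMI. Of these 87 cells 4 lay in the Sox6 groups, and the 87 held 26 Ednra and 14 Ednrb UMIs, so they are not a clean background. Library 1 had only 10 such cells, with 6 Ednra and 0 Ednrb UMIs. Ednra shares of 13.7% and 15.3% in crypt cells of libraries 1 and 2, and Ednrb shares of 1.08% and 5.49%, should be read beside that background with these limits.

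Whether the receptors met in a cell more often than their frequencies give depended on depth. Over 10 depth bins the odds ratio of Ednrb with Ednra in Sox6 cells was 1.73 and 4.09. With each cell thinned to 2000 UMIs it was 0.496 and 1.06, with both receptors in 62 of 282 and 721 of 2653 cells, where independence within depth bins gave 73.3 and 712. Library 1 thus lay below 1 and library 2 close to it, and only in library 1 did the direction differ from that with all UMIs. Among Sox6 cells with neither gene the thinned odds ratio was 0.752 and 1.63, and on the Wif1 side 0.784 and 1.02. With all UMIs it was 3.80 and 6.29 in the former and 1.5 and 2.59 in the latter. Cells are not replicates, so these ratios carry no p-value. In villus cells without Sox6 the thinned odds ratio was 4.53 and 5.81, resting on 1 and 56 cells with both receptors. With all UMIs it was 2.31 and 3.62 there, on 7 and 147 cells with both.

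**Figure D3:**
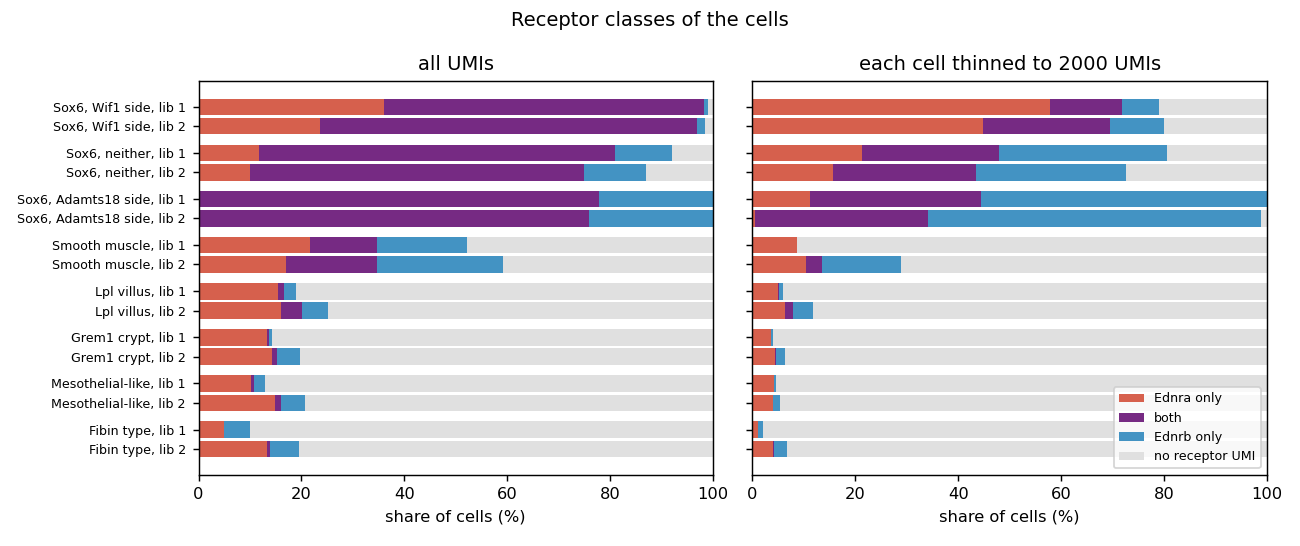
Share of cells (%) with Ednra alone, both receptors, Ednrb alone or no receptor UMI, for 8 groups in each 10X library, with all UMIs (left) and with each cell thinned to 2000 UMIs (right). On the Adamts18 side Ednra alone is absent with all UMIs, and cells without a receptor UMI make up most of each group outside the Sox6 cells once cells are thinned.

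The proportion of the receptors varied widely from cell to cell. UMIs are not corrected for how well each gene is captured, so the Ednrb share of the receptor UMIs of a cell is used only to set cells beside each other. Over whole groups that share was 22.7% and 29.6% on the Wif1 side, 71.6% and 70.2% in Sox6 cells with neither gene and 94.3% and 92.9% on the Adamts18 side. Of cells with 5 or more receptor UMIs, 51.8% and 52.0% of those with neither gene lay between 20% and 80%. On the Adamts18 side 16 of 18 and 155 of 171 such cells lay above 80%, and none lay below 20%. Only 1 of 90 and 8 of 640 such cells on the Wif1 side lay above 80%.

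**Figure D4:**
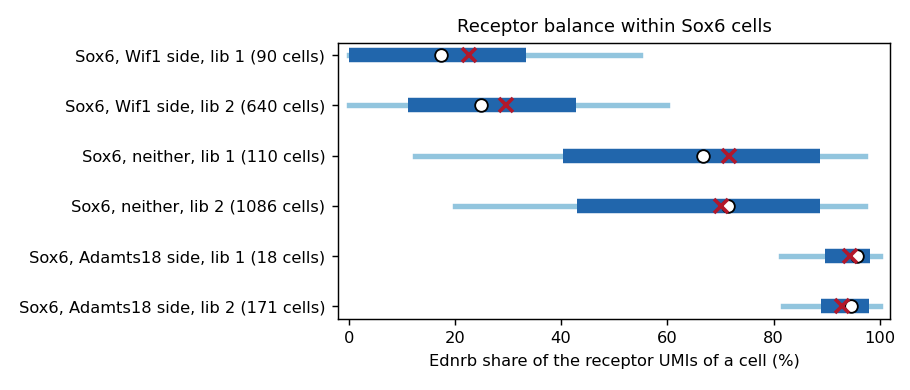
Ednrb share of the receptor UMIs (%) of Sox6 cells with 5 or more receptor UMIs, by group and 10X library, with thick bars from the 25th to the 75th and thin bars from the 10th to the 90th percentile, circles at the median and crosses at the share over all cells of the group. The Wif1 and Adamts18 sides lie at opposite ends, and cells with neither gene spread between them.

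Cells rich in Ednrb held less Ednra and more Ece1. Among Sox6 cells with 2 to 4 Ednrb UMIs, Ednra stood at 5.12 and 5.27 UMIs per 10,000. It was 3.31 and 3.67 in cells with 10 to 19 Ednrb UMIs and 1.24 and 2.66 in cells with 20 or more. Cells with no Ednrb UMI held 3.91 and 3.40, less than those with 1 to 4, so the course was not a steady fall. Ece1 went over the same bins from 3.87 and 3.15 with no Ednrb UMI to 6.05 and 6.75 with 20 or more. Median depth was 11320 and 7500 UMIs with no Ednrb UMI, 11040 and 8214 with 1 and 11900 and 9136 with 20 or more, and its part in the course was not tested. The UMI number of the genes that define the sides varied with the receptors as well. These bins divide the groups tested above and are given as a description. Ednrb went from 3.20 and 3.46 UMIs per 10,000 in cells with 1 Wif1 UMI to 1.10 and 2.19 with 4 or more, and from 19.5 and 26.1 with 1 Adamts18 UMI to 36.2 and 35.0 with 2 or more.

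**Figure D5:**
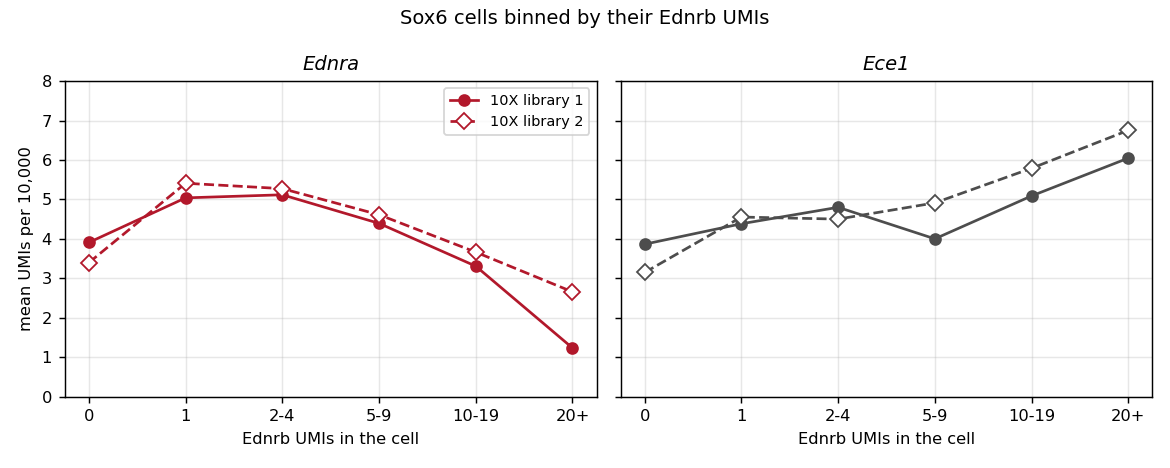
Mean Ednra (left) and Ece1 (right) level in UMIs per 10,000 of Sox6 cells binned by the number of Ednrb UMIs in the cell, with circles and a solid line for 10X library 1 and diamonds and a dashed line for library 2. Ednra is lowest and Ece1 highest in cells with 20 or more Ednrb UMIs, in both libraries.

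Cells with neither Wif1 nor Adamts18 varied with their Sox6 count. Median depth was 7949 and 6888 UMIs in those with 1 Sox6 UMI and 11550 and 8614 in those with 4 or more, and its part was not tested. In library 2, 39.3% of the 499 cells with 1 Sox6 UMI held no receptor UMI, against 3.96% of 530 cells with 2 to 3 and 0.602% of 664 cells with 4 or more. Pdgfra stood at 12.4, 20.2 and 27.1 UMIs per 10,000 in these cells, and 35, 24 and 3 of them carried glial markers. In library 1 the shares without a receptor UMI were 31.0% of 29, 8.82% of 34 and 0 of 89 cells. Ednra went from 1.19 and 1.63 UMIs per 10,000 with 1 Sox6 UMI to 4.08 and 4.83 with 4 or more. Ednrb did not follow the Sox6 count, at 6.48 and 5.34 with 1 Sox6 UMI, 13.2 and 9.89 with 2 to 3 and 7.28 and 8.85 with 4 or more.

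In villus cells without Sox6, Ednrb was concentrated in few cells. In this group 2 of 599 and 94 of 3660 cells held 5 or more Ednrb UMIs, and these held 79.2% and 80.5% of the Ednrb UMIs of the group. Pdgfra stood at 16.6 UMIs per 10,000 in the 94 cells against 4.97 in the whole villus group and 25.1 in Sox6 cells of that library, and 89 of the 94 held 3 or more Pdgfra UMIs. The remaining villus cells held 0.0414 and 0.207 Ednrb UMIs per 10,000. Only 1 of the 94 carried glial markers. In the other groups without Sox6 such cells held varying shares of the Ednrb UMIs, at 75% and 36.5% in cells of no group (4 and 8 cells), 0% and 37.6% in crypt, 0% and 33.0% in mesothelial-like and 0% and 23.4% in Fibin type cells.

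Smooth muscle cells held less of each gene than Sox6 cells. The differences were -0.99 ± 0.043 for Ednra, -1.49 ± 0.074 for Ednrb and -0.93 ± 0.075 for Ece1 (limma, adjusted p = 2.77e-09, 6.80e-09 and 5.20e-07), where 54.2% of 1728 genes were called. Against the other fibroblasts smooth muscle was higher by 0.18 ± 0.042 in Ednra and 0.38 ± 0.071 in Ednrb (limma, adjusted p = 0.00297 and 0.000702), where 51.5% of 1644 genes were called. Both calls were lost with the Smartseq2 plates added (limma, adjusted p = 0.101 and 0.117). For Ednrb the difference was 0.24 in library 1 and 0.53 in library 2, so it is smaller without library 2. In library 2, 8 of 130 smooth muscle cells held 45.3% of the Ednrb UMIs of that group, and 75 held none. The other cells there held 1.23 Ednrb UMIs per 10,000, still above villus cells, and in library 1 no smooth muscle cell held 5 or more. For Ece1 the difference from the other fibroblasts of 0.20 ± 0.073 (limma, adjusted p = 0.0387) was 0.33 in library 1 and 0.069 in library 2, and the call was lost under other settings. The value was -0.11 with Sox6 and the other rules read before the smooth muscle rule, where no library 1 group of 10 cells remained, so that it rests on 43 cells of library 2 with no replicate.

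In the order of levels, neighbours did not always differ. For Ednra, smooth muscle and villus cells differed by 0.12 ± 0.053 (limma, adjusted p = 0.102), and no neighbours below them passed the test. In those lower pairs 22.7% (villus and crypt), 12.7% (crypt and mesothelial-like) and 56.9% (mesothelial-like and Fibin type) of genes were called. For Ednrb, smooth muscle was above villus cells by 0.34 ± 0.090 (limma, adjusted p = 0.0125, with 30.3% of 1591 genes called), and no neighbours below villus cells passed, with 49.0% of genes called between villus cells and the Fibin type. For Ece1, no neighbours below smooth muscle passed, with 39.1% called between villus and mesothelial-like cells and 56.7% between crypt cells and the Fibin type. The gap from the lowest Sox6 group to smooth muscle passed for each gene. It was 0.58 ± 0.053 for Ednra from the Adamts18 side (limma, adjusted p = 1.69e-06, 49.8% of genes called), 0.44 ± 0.090 for Ednrb from the Wif1 side (limma, adjusted p = 0.00126, 48.4% called) and 0.74 ± 0.092 for Ece1 from cells with neither gene (limma, adjusted p = 3.80e-05, 41.1% called).

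Ece1 was high in all 3 Sox6 groups and present in every other group. It stood at 5.27 and 7.01 UMIs per 10,000 on the Adamts18 side, 4.61 and 4.89 on the Wif1 side and 4.43 and 4.29 in cells with neither gene. Smooth muscle held 1.67 and 1.27, villus cells 1.22 and 1.34, crypt cells 0.976 and 1.07, mesothelial-like cells 0.948 and 1.23 and the Fibin type 0.734 and 0.520. An Ece1 UMI was found in 49.3% of Grem1 crypt cells of library 2 against 25.3% of immune-marker cells, or in 906 of 4767 against 6 of 75 cells when thinned. The difference between the Adamts18 and Wif1 sides was 0.21 ± 0.092 (limma, adjusted p = 0.0990; 0.13 and 0.29 in libraries 1 and 2) and that between the Wif1 side and cells with neither gene 0.18 ± 0.092 (limma, adjusted p = 0.313). The Adamts18 side was higher than cells with neither gene by 0.39 ± 0.092 (limma, adjusted p = 0.00973). That call was lost on the log of the mean level (limma, adjusted p = 0.148) and with 2 or more Sox6 UMIs asked for (limma, adjusted p = 0.0822).

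Genes that act with the receptors were read from lists by role. The table held 9 of the 12 contractile effectors listed and 13 of the 30 genes of receptor signalling. It held 22 of 35 other vasoactive receptors and 5 of 12 cGMP and nitric oxide genes, and not all of these passed the filter. Of 9 contractile effectors in the table, all 9 were higher in Sox6 cells and in smooth muscle than in other fibroblasts, with median differences of 1.34 and 2.12 against 0.019 and -0.0094 over all genes tested, where 43.4% and 22.5% of genes were called higher. They include Acta2, the smooth muscle actin, at 2.24 and 3.28, and Mylk, the kinase that drives contraction, at 1.52 and 2.09. Smooth muscle was above Sox6 cells in 8 of the 9 and below them in 1, where 54.2% of all genes were called. Against cells with neither gene the Adamts18 side was higher in 4 of 9, Acta2, Mylk, Myh11 and Tpm2, and lower in none, where 18.1% of all genes were called in either direction. The Wif1 side was higher in 2 of 9, Cald1 by 0.48 and Des by 0.33, and lower in none, where 11.9% were called. Between the sides 15.0% of all genes were higher and 16.8% lower on the Adamts18 side. Of the contractile effectors 1 of 9 was higher on the Adamts18 than on the Wif1 side (Myh11, smooth muscle myosin, 0.38 ± 0.13, 0.52 and 0.25 in libraries 1 and 2, limma, adjusted p = 0.0379) and 1 was lower (Des, desmin, -0.37 ± 0.068, limma, adjusted p = 0.000966). Of 8 tested genes of receptor signalling, Rgs2, Rgs3 and Rgs5, which shorten G protein signals, were higher on the Adamts18 side by 0.27 ± 0.070, 0.21 ± 0.044 and 0.49 ± 0.14 (limma, adjusted p = 0.0112, 0.00240 and 0.0139). Rgs2 differed by 0.14 and 0.39 and Rgs5 by 0.71 and 0.28 in libraries 1 and 2, so their size rests on 1 library each. Gnai1, an inhibitory G protein subunit, was lower at -0.30 ± 0.046 (limma, adjusted p = 0.000280). Of 12 tested receptors for other vasoactive ligands, Bdkrb1 and Bdkrb2, which bind kinins, were higher on the Adamts18 side, the latter by 0.95 ± 0.12 (limma, adjusted p = 3.43e-05). F2rl1, a protease-activated receptor, was lower at -0.065 (-0.038 and -0.092 in libraries 1 and 2), and so was Ramp1, a partner of the calcitonin receptor-like receptor, at -0.47 ± 0.063 (limma, adjusted p = 7.77e-05). Of 3 tested cGMP genes, Gucy1a1, a subunit of the nitric oxide receptor, was higher by 0.44 ± 0.10 (limma, adjusted p = 0.00492) and Npr3, a clearance receptor for natriuretic peptides, by 0.075 ± 0.025 (limma, adjusted p = 0.0351). The Npr3 difference was 0.034 and 0.12 in libraries 1 and 2, at levels of 0.0465 and 0.200 UMIs per 10,000 on the Adamts18 side, 18 cells of which are in library 1. Against the other fibroblasts, where 74.2% of all genes were called, Sox6 cells were higher in 3 of 9 tested genes of receptor signalling (Gna11, Gnai1 and Rgs3) and lower in 3 (Plcb4, Itpr3 and Rgs5). The widest differences were in Gnai1, at 0.61 ± 0.025, and Rgs5, at -1.12 ± 0.073 (limma, adjusted p = 4.06e-10 and 2.10e-08).

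Across the 16 means of 8 groups in 2 libraries, Ednra and Ednrb had a Pearson r of 0.557, Ednra and Ece1 of 0.868 and Ednrb and Ece1 of 0.864. Points of a library share its depth and points of a group its cells, so these describe the pattern only. Among the genes most like Ednra, of 2014 compared, were Tbx4, Lmo7, Tspan13 and Fbn2, with r from 0.970 to 0.985. Those most like Ednrb were Tox, Emid1, Abr, Dusp10 and Nr1h4, from 0.978 to 0.994. Ece1 lay closest to Bmp5, Id1, Col12a1, Pcsk6 and Tspan6, from 0.965 to 0.979. At the other end stood Spon2 at -0.945 for Ednra, and Peg3 at -0.878 for Ednrb and -0.955 for Ece1.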

How the data were processed

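Single stromal cells of the mouse small intestine were measured in 2 10X libraries and 2 Smartseq2 plates. Per the submitters' processing notes, Cell Ranger 3.1.0 was used, as were TopHat2 2.1.1 and featureCounts of Subread 1.4.6-p5, with mm10 (GRCm38) and Seurat. The deposited table holds natural log values: the authors normalised each cell to its total UMIs, took the natural log and integrated the plates with the 10X cells, and 10X values fit the log of 1 plus UMIs per 10,000. It was read for 3891 genes, with 1 row that ends early left out. In 10X cells 100% of values above 0 returned to whole UMIs (tolerance 0.01), and no per-sample column lacked a sample. Doublets were not called, and an alternative left out the deepest 10% of cells. The members, gene lists and tests were chosen with earlier results of these data known.

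Natural log values were averaged over the cells of each library and group (at least 10 cells, 8 groups) and tested with limma 3.58.1 in R 4.3.3, with a mean trend and library as block, over genes above 0 in at least 5% of the cells of either group. The 17 genes of the group rule were left out, and p-values were adjusted over all genes tested. Scripts ran in Python 3.11.15 and were tested on simulated data. Named genes were the members, called genes of the role lists, and the 5 highest and 3 lowest correlated genes per member, of which 1 is not reported here. Intervals of shares are exact Clopper-Pearson at 95%. UMI depth ranged from 559 to 26890 per cell in library 1 and from 465 to 22450 in library 2. Alternatives changed the block, filter, trend, weights, scale, cells and libraries used.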

Additional observations from a re-analysis of the deposited data

How the results depend on the processing

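Over all alternatives 260 values kept their direction and side of the threshold or moved by less than the spread, 12 lost a call, 4 gained one, 1 reversed and 113 moved, of which 101 were shares of cells. Adding the Smartseq2 plates left 1, 108, 234, 832, 490 and 370 genes called for the Wif1 side against cells with neither gene, the Adamts18 side against them, the Adamts18 against the Wif1 side, Sox6 cells against other fibroblasts, smooth muscle against other fibroblasts and smooth muscle against Sox6 cells. Plates alone ran against the 10X libraries in part: Ednrb was higher on the Wif1 side, and Ednra on the Adamts18 side, than in cells with neither gene in both plates. With the plates added the Wif1 side differed from cells with neither gene by 0.52 in Ednra and -0.25 in Ednrb (limma, adjusted p = 0.403 and 0.893), the Adamts18 side from them by -0.044 in Ednra and 0.52 in Ece1 (limma, adjusted p = 0.917 and 0.105), and from the Wif1 side by -0.56 in Ednra (limma, adjusted p = 0.103). Smooth muscle then differed from other fibroblasts by 0.40 in Ednra and 0.60 in Ednrb (limma, adjusted p = 0.101 and 0.117). Plate values were corrected on integration, so a value above 0 need not mark detection there. The smooth muscle rule took 203 and 124 plate cells, and the cause was not tested. Weighting by cells gave 548 and the log of the mean level 116 calls for the Wif1 side against cells with neither gene, where Ece1 differed by 0.22 with weights (limma, adjusted p = 0.00142).

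Other settings changed the Ece1 calls in 10X data. For the Adamts18 side against cells with neither gene it was 0.33 on the log of the mean level and 0.26 with 2 or more Sox6 UMIs. Against the Wif1 side it passed with weights (0.28), with the smooth muscle rule read last (0.21) and without the deepest 10% of cells (0.29), with limma adjusted p = 0.0257, 0.0456 and 0.0390. For smooth muscle against other fibroblasts it was -0.11 with that rule read last, where smooth muscle rests on 1 library assumed to vary like the other groups, and missed the threshold at 0.20 without a filter, 0.11 with weights and 0.19 with 2 or more Sox6 UMIs (limma, adjusted p = 0.0797, 0.358 and 0.0570). In the 6 main comparisons and 10X data alone, no receptor call was lost under an alternative with a test. Differences between neighbouring groups were not run under the alternatives.

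The block is the library, from which all groups of a number come. Without the replicate block 155 in place of 197 genes were called for the Wif1 side against cells with neither gene, and no call of the 3 genes changed (Ednra 0.62, limma, adjusted p = 0.000102). With 1 library left out there is no spread, so the value has no test. It ranged from 0.54 to 0.70 for Ednra and -0.94 to -0.60 for Ednrb on the Wif1 side against cells with neither gene, from 2.31 to 2.42 for Ednrb between the sides, from 0.24 to 0.53 for Ednrb and from 0.069 to 0.33 for Ece1 in smooth muscle against other fibroblasts.

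Depth limited the shares of cells. In Sox6 cells of library 2 either receptor was found in 91.3% with all UMIs, 85.2% with 2 or more UMIs asked for and 76.6% when thinned, and both in 68.2% and 27.2%. The Adamts18 side of library 1 rests on 18 cells.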
